A study of Mus musculus with 6 samples.

Results

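The imprinted growth genes of muscle described here are H19, DLK1, PEG3, MEST, PLAGL1, GRB10, NDN, SGCE and PEG10, as the array names them. They are 9 of the 30547 gene symbols on a mouse BeadChip, and were taken as every row of the probe report that carried such a name, which gave 20 probes, each kept on its own. An imprinted gene is transcribed mainly from the maternal or mainly from the paternal chromosome, so that its dose depends on a single copy. Many imprinted genes act on the growth of the embryo and of muscle, and *H19*, *Igf2*, *Dlk1*, *Peg3* and *Mest* are known to be abundant in young muscle and in muscle that regenerates. *H19* and, in most tissues, *Grb10* are read from the maternal copy, and the other 7 genes from the paternal copy. The array measures the sum of both copies, so that allelic use was not analysed here.

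The question of the series was how the loss of DJ-1, a protein that protects cells against oxidative stress and is encoded by *Park7* (*Dj1*), alters gene expression in muscle cells. C2C12, a mouse myoblast line, received 60 nM of siRNA as growing myoblasts. The siRNA was either scramble (3 arrays, the control) or directed at *Dj1* (3 arrays, written siDJ-1), and 48 h later the cells were moved to differentiation medium for 4 days to form myotubes. Per the study's methods a single siRNA sequence targeted *Dj1*, so that effects of the knockdown and other effects of that sequence cannot be told apart. The labels do not say whether replicates came from separate cultures, so that p-values measure the spread between these arrays, which may be in part technical.

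Each value is the mean fluorescence of the beads that carry a probe, with a detection p-value that compares it with negative control beads. A probe was taken as detected on an array at a detection p under 0.05, and was tested when detected on at least 3 of the 6 arrays. The median signal was 152.3 to 167.4 per array, and the faintest signal that counted as detected lay between 167.2 and 187.4 for scramble and between 161.6 and 176.8 for siDJ-1. The scramble arrays detected 16985 to 18179 probes and the siDJ-1 arrays 18408 to 18857, so that these ranges did not overlap. The median standard error over beads was 8.30 to 11.26 on the scramble arrays and 5.88 to 7.17 on the siDJ-1 arrays, also without overlap. The part of this difference in the results was not tested. Levels are given below as normalized log2 signal, and a difference is siDJ-1 minus scramble on that scale, with its 95% confidence interval and the adjusted p of limma.

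*Park7* itself served as the check of the labels. Its probe read 13.59, 13.37 and 13.63 in scramble replicates 1, 2 and 3, and 12.48, 12.49 and 12.15 in siDJ-1 replicates 1, 2 and 3. Every siDJ-1 array lay below every scramble array. The knockdown left 44.7% of the scramble level (difference −1.16, interval −1.49 to −0.84, limma adjusted p = 0.00344).

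Of the 9 genes, *H19*, *Mest*, *Ndn* and *Peg3* had at least 1 tested probe, 8 probes in all, and *Dlk1*, *Plagl1*, *Grb10*, *Sgce* and *Peg10* had none. Among the 8 tested probes 2 were lower after *Dj1* knockdown, the probe of *Ndn* and a probe of *Mest*, and 0 were higher. At an unadjusted p under 0.05 limma gave 4 lower and 0 higher, against 19.2% and 23.6% of all tested probes. Over all 17890 probes tested on the array 30.1% passed the adjusted p of 0.05, 13.6% as lower and 16.5% as higher, and with 8 probes of 4 genes, several of which share a transcript, nothing particular to the set was read from its count. The arrays of both groups did not overlap for 4 of the 8 probes, against 48.5% of all tested probes. The median difference was −0.43 over the 8 probes and 0.05 over all tested probes.

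**Figure D1:**
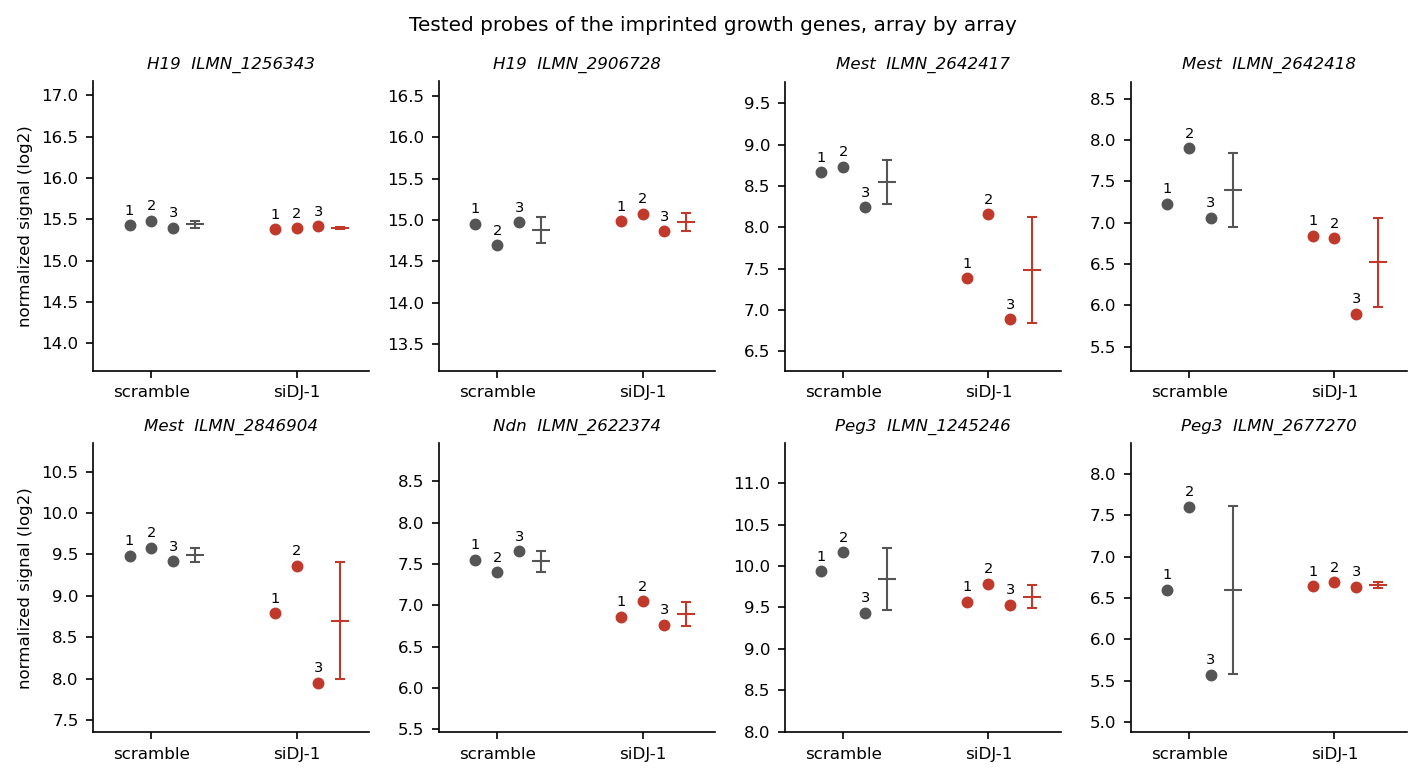
Normalized log2 signal of the 8 tested probes on each array, with scramble arrays in grey, siDJ-1 arrays in red, replicate numbers above the points, and bars for the mean ± SD of 3 arrays; every panel spans the same log2 range. The *Ndn* probe and the *Mest* probes lay lower on the siDJ-1 arrays, with siDJ-1 replicate 2 close to the scramble arrays for ILMN_2642417 and ILMN_2846904, while the *H19* and *Peg3* probes overlapped between groups.

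*Mest* encodes a hydrolase-like protein of the endoplasmic reticulum that is expressed from the paternal copy, and an intron of the gene holds miR-335. The array carried 3 probes for it, all of the same transcript, and all 3 were detected on all 6 arrays. Probe ILMN_2642417 read 8.66, 8.73 and 8.24 on scramble arrays 1, 2 and 3 and 7.38, 8.16 and 6.89 on siDJ-1 arrays 1, 2 and 3. Its lowest scramble array, replicate 3, stood just above its highest siDJ-1 array, replicate 2, so that the groups did not overlap but came close. The mean was 8.55 ± 0.26 after scramble and 7.48 ± 0.64 after siDJ-1 (SD, n = 3 arrays each), a level of 47.7% of scramble (difference −1.07, interval −1.83 to −0.31, limma adjusted p = 0.0454). The RNA was isolated in bulk, so that fewer cells of a type and less RNA per cell cannot be told apart.

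The other *Mest* probes leaned the same way and did not pass. ILMN_2642418 read 7.23, 7.90 and 7.06 after scramble and 6.84, 6.82 and 5.90 after siDJ-1 (difference −0.88, interval −1.64 to −0.11, limma adjusted p = 0.0815). ILMN_2846904 read 9.49, 9.58 and 9.42 after scramble and 8.79, 9.36 and 7.95 after siDJ-1 (difference −0.79, interval −1.58 to −0.01, limma adjusted p = 0.114). For all 3 probes the siDJ-1 array of replicate 3 was the lowest of the 6, and the groups did not overlap for either of these probes on the normalized scale. On the deposited scale, before any correction, the highest siDJ-1 array of each *Mest* probe reached above the lowest scramble array. ILMN_2642417, for example, read 443.6 on siDJ-1 replicate 2 and 426.5 on scramble replicate 3.

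The spread among the siDJ-1 arrays was therefore large for this gene, and the call of ILMN_2642417 changed with the arrays and probes that entered the fit. Without siDJ-1 replicate 2 its difference was −1.40 (limma adjusted p = 0.0134), and without any other array in turn the adjusted p was 0.0591 to 0.123. ILMN_2846904, which had not passed, did so without siDJ-1 replicate 2 (difference −1.12, limma adjusted p = 0.0317). With no background correction all 3 probes were called lower, with differences of −0.68, −0.42 and −0.62, whereas ILMN_2642417 lost its call with no filter on dim probes (limma adjusted p = 0.0964) and the mean of the probes was not called (difference −0.91, limma adjusted p = 0.0566). Over all 14 alternatives the adjusted p of ILMN_2642417 was 0.00338 to 0.123.

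*Ndn* encodes necdin, a protein of the MAGE family that restrains E2F1 and is known to favour the differentiation and survival of myoblasts. Its probe ILMN_2622374 read 7.55, 7.40 and 7.65 after scramble and 6.86, 7.05 and 6.77 after siDJ-1. The deposited signals behind these were 332.2, 317.9 and 324.8 after scramble and 249.4, 280.2 and 219.6 after siDJ-1, with a standard error over beads of 6.74 to 21.03. All siDJ-1 arrays lay below all scramble arrays on both scales. The mean was 7.54 ± 0.13 after scramble and 6.89 ± 0.14 after siDJ-1 (SD, n = 3 arrays each), a level of 64.1% of scramble (difference −0.64, interval −0.93 to −0.35, limma adjusted p = 0.0112). It passed without each array in turn, at adjusted p of 0.0178 to 0.0480. With no background correction the difference was −0.34, and it remained called.

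*Mest* and *Ndn* were the genes with a called probe, and the start of each is shown because both were lower after knockdown. *Peg3*, which was tested and not called, is shown beside them. Of the 9 genes 6 have an entry in the RefSeq promoter table of build GRCm38.p6, with 9 starts in all, 3 of them for *Mest*. The 250 bases before the start are printed. Capitals mark the E-box CANNTG, bound by myogenic factors, GGGGCCCC, a palindrome bound by the protein of *Plagl1*, and GCATGCGC, the core bound by NRF1, chosen after the sequences had been seen; both strands were searched.
*Mest*, upstream start, chr6:30733256-30733505, plus strand: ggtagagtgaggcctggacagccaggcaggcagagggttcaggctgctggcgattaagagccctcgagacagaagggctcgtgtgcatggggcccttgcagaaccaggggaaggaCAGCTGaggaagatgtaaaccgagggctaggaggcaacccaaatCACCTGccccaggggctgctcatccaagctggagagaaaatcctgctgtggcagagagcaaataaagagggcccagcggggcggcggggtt
*Mest*, downstream start, chr6:30737800-30738049, plus strand: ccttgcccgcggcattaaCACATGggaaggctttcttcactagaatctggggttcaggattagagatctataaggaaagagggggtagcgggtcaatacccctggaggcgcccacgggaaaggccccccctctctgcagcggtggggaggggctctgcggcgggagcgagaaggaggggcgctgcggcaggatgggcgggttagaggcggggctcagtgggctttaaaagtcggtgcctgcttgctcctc
*Ndn*, chr7:62348027-62348276, plus strand: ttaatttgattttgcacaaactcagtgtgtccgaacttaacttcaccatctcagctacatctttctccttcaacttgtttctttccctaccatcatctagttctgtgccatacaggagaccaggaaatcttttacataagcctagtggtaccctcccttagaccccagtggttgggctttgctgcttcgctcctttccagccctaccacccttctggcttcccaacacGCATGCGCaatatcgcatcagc
*Peg3*, chr7:6730420-6730669, minus strand: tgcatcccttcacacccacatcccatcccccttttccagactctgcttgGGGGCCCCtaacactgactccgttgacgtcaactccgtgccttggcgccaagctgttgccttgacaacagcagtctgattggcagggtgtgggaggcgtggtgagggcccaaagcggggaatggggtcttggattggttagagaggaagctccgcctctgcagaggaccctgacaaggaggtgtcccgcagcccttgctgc
The upstream *Mest* window held 2 E-boxes, of which 1 was CAGCTG, and the downstream *Mest* window held 1 E-box. The windows of *Ndn* and *Peg3* held 0. *Peg3* held GGGGCCCC at 1 place, and *Ndn* held GCATGCGC at 1 place. Of all 32841 promoter windows 66.2% held CANNTG, 13% CAGCTG, 0.889% GGGGCCCC and 2.26% GCATGCGC. The windows had 7, 14, 5 and 8 CpG dinucleotides in the order printed, against a median of 6 over all windows. No value of the array bears on binding at these places.

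*H19* is a long non-coding RNA read from the maternal copy, abundant in differentiating muscle, and the precursor of miR-675. Probe ILMN_2906728 gave deposited signals of 29046.5, 26144.9 and 28953.8 after scramble and 33609.1, 38740.2 and 30043.5 after siDJ-1. On that scale all siDJ-1 arrays lay above all scramble arrays, by a ratio of the means of 1.22. After normalization the values were 14.96, 14.69 and 14.98 against 14.98, 15.07 and 14.87, and the groups overlapped (difference 0.10, interval −0.19 to 0.39, limma adjusted p = 0.565).

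The call of this probe turned on the scaling. Quantile normalization, which gives each probe the value that belongs to its rank, was used here, and the probe ranked 85 to 137 on the scramble arrays and 70 to 103 after siDJ-1. With each array shifted to a common 75th percentile in its place, the same probe was called higher (difference 0.39, limma adjusted p = 0.0381), and with that shift and no background correction also (difference 0.33, limma adjusted p = 0.0166), within a range of 0.0166 to 0.969 over all 14 alternatives. Probe ILMN_1256343 read 15.43, 15.48 and 15.40 after scramble and 15.38, 15.39 and 15.41 after siDJ-1 (difference −0.04, interval −0.25 to 0.17, limma adjusted p = 0.753). Under the 75th percentile shift its difference turned to 0.21, uncalled. It stood at 87.2 to 92.2% of the highest signal on its array in both groups, near the top of what the scanner recorded.

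The small RNAs within these transcripts are known for opposite parental origin, that of *H19* maternal and that of *Mest* paternal. Their mature sequences from RefSeq (GRCm38.p6) are given with the seed, bases 2 to 8, in capitals. They show which products the probes do not report, since neither small RNA was measured here.
miR-675-5p, within *H19*, chr7:142577112-142577133, minus strand: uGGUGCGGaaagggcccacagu
miR-335-5p, within *Mest*, chr6:30741314-30741336, plus strand: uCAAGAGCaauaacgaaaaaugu
The seeds differ, so that these small RNAs do not form a seed family.

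*Peg3* encodes a large zinc finger protein read from the paternal copy, which is found in muscle stem cells and is known to act in p53 and TNF signalling. Of its 3 probes 2 were tested and 0 called. ILMN_1245246 read 9.94, 10.17 and 9.43 after scramble and 9.57, 9.79 and 9.54 after siDJ-1, and the groups overlapped (difference −0.22, interval −0.69 to 0.25, limma adjusted p = 0.442). ILMN_2677270 read 6.601, 7.603 and 5.571 after scramble and 6.638, 6.692 and 6.635 after siDJ-1. Its scramble arrays stood both above and below all siDJ-1 arrays, and the interval was the widest of the set (difference 0.06, interval −1.03 to 1.16, limma adjusted p = 0.930). ILMN_1225513 was below background on all 6 arrays, with signals of 143.3 to 171.3.

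The remaining genes lay at the background of the array. *Dlk1*, a transmembrane protein with EGF repeats that holds back adipocyte formation, had 2 probes with signals of 118.7 to 162.2, and neither was detected on any array. *Sgce*, the epsilon subunit of the sarcoglycans that join the cytoskeleton to the matrix, had 1 probe at 125.7 to 160.7, also undetected. *Peg10*, its head-to-head neighbour, derived from a retrotransposon and needed for the placenta, had 2 probes at 136.8 to 180.6, undetected as well. Signal at this level gives no level of the transcript in either group, and a change below it was not detectable.

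*Grb10*, an adaptor that binds the insulin and IGF1 receptors and dampens their signal, had 3 probes. Probe ILMN_2518412 read 140.9, 163.3 and 154.6 after scramble and 160.2, 178.1 and 160.6 after siDJ-1 on the deposited scale, and was detected on siDJ-1 replicate 2 alone, at a detection p of 0.0438. *Plagl1*, a zinc finger transcription factor that stops the cell cycle and regulates other imprinted genes, had 3 probes, and ILMN_1240034 was detected on a single array. It read 131.7, 162.1 and 240.3 after scramble and 152.9, 155.6 and 135.0 after siDJ-1. The 240.3 of scramble replicate 3 came with a standard error of 27.1 over 27 beads, the largest of its 6 arrays, and the other *Plagl1* probes read 144.8 and 126.2 there. Without the detection filter 0 of these 12 probes passed limma's adjusted p (lowest 0.105), and 2 had an unadjusted p under 0.05, a *Dlk1* probe and a *Plagl1* probe that were undetected on all arrays.

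**Figure D2:**
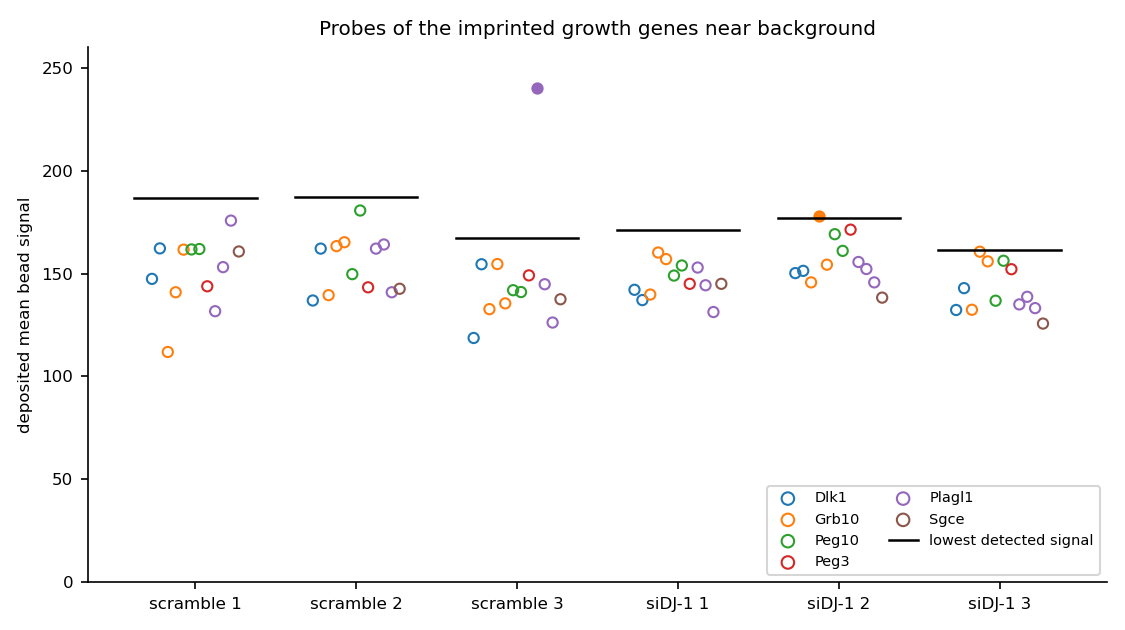
Deposited signal of the 12 probes that were not tested, on each array, with filled points where the detection p was under 0.05 and a black line at the faintest signal detected on that array. Apart from the *Plagl1* probe at 240.3 on scramble replicate 3 and a *Grb10* probe at 178.1 on siDJ-1 replicate 2, all points lie below the line.

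Many imprinted genes lie in clusters, so the neighbours of each gene were read from the same fit. A domain below means the listed neighbours of a member, which need not share its control. The neighbours and imprinted genes elsewhere came to 73 genes with 146 probes, of which 60 were tested. After siDJ-1 13 of the 60 were called higher (21.7%) and 6 lower (10.0%), against 16.5% and 13.6% of all tested probes. The 13 included a probe of *Cobl* that passed the detection filter by the siDJ-1 arrays alone. The median difference of the 60 was 0.21, against 0.05 over all tested probes. The direction of every called probe of these and the later lists, 56 with *Park7*, was the same under the 3 other scalings tried, and 49 of the 56 stayed called under all of them. Some dim probes had a smaller difference with no background correction. Examples are *Gatm* (0.97 in the main analysis and 0.34 without), *Heyl* (−1.73 and −0.83) and *Pon3* (−0.88 and −0.36). The probes of *Pon2*, *Des*, *Col1a1*, *Col3a1* and *Pdgfra* lost their call under the 75th percentile shift (limma adjusted p = 0.0839, 0.0554, 0.0795, 0.0930 and 0.0639), as did that of *Tnni2* (difference −0.31 in the main analysis and −0.03 under the shift, adjusted p = 0.860), which was also uncalled with the shift and no background correction. That of *Cebpa* lost it with no background correction, with quantile normalization (adjusted p = 0.0840) or the shift (adjusted p = 0.135).

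In the *H19* domain 2 of 8 tested probes were higher and 0 lower. *Igf2*, the growth factor that is read from the paternal copy and shares enhancers with *H19*, read 13.65, 13.80 and 13.89 after scramble and 14.29, 14.22 and 14.05 after siDJ-1. The groups did not overlap, and the gene rose (difference 0.40, interval 0.13 to 0.68, limma adjusted p = 0.0393). *Cdkn1c*, which encodes the cell cycle inhibitor p57 and is read from the maternal copy, read 10.17, 9.98 and 9.85 against 10.75, 10.94 and 10.80, again with no overlap (difference 0.83, limma adjusted p = 0.00529). *Igf2r*, on another chromosome, encodes the receptor that clears IGF2, and 1 of its 2 probes rose (difference 0.41, limma adjusted p = 0.0353; the other 0.41, adjusted p = 0.102).

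In the *Mest* domain 1 of 3 tested probes was higher, that of *Copg2*, a coat protein gene beside *Mest* (difference 0.50, limma adjusted p = 0.0407), so that it and the called *Mest* probe moved in opposite directions. In the *Ndn* domain 2 of 6 probes were higher and 1 lower. *Snurf* (0.35, limma adjusted p = 0.0420) and the ubiquitin ligase gene *Ube3a* (0.59, adjusted p = 0.0232, with a further probe at −0.13, adjusted p = 0.730) were higher by 1 probe each. The lipid flippase gene *Atp10a* was lower (−0.79, adjusted p = 0.0169), as *Ndn* was.

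Around *Grb10*, which was itself near background, 3 of 4 probes were called higher, 2 of *Ddc* and 1 of *Cobl*. *Ddc*, aromatic amino acid decarboxylase, rose by both its tested probes (1.504 and 1.073, limma adjusted p = 0.00309 and 0.0255). *Cobl*, an actin nucleator, was undetected on all scramble arrays and detected on all siDJ-1 arrays by probe ILMN_2698288, which was at least 1.52-fold higher, taking the faintest detected signal as the scramble level. It passed the detection filter by the siDJ-1 arrays alone, so that its call rests on that detection, and no p is given for it. The other tested *Cobl* probe, ILMN_2951682, was detected on 2 of the scramble arrays and was uncalled (0.36, limma adjusted p = 0.195), and ILMN_1215003 was detected on scramble replicate 1. Around *Sgce* and *Peg10* 2 of 4 probes were lower, of the paraoxonases *Pon2* (−0.45, adjusted p = 0.0267, uncalled under the 75th percentile shift) and *Pon3* (−0.88, adjusted p = 0.0318, with the other *Pon3* probes at −0.19 and −0.13, uncalled). The neighbours of *Dlk1*, *Peg3* and *Plagl1* had 6, 7 and 1 probes, and 0 were tested.

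**Figure D3:**
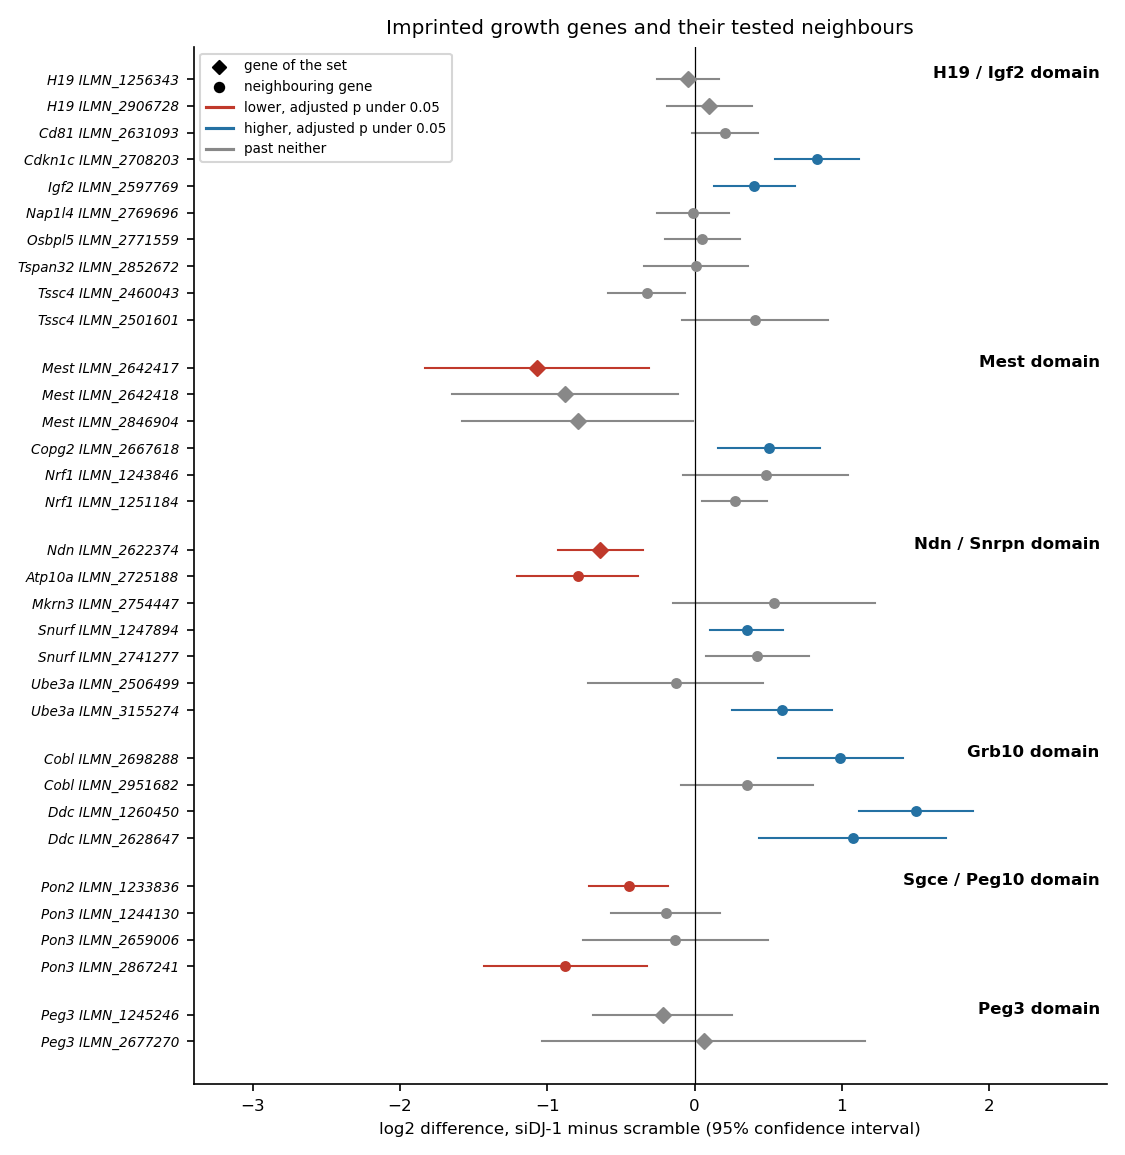
Log2 difference, siDJ-1 minus scramble, with its 95% confidence interval for each tested probe of the set (diamonds) and of its neighbours (circles), grouped by imprinted domain; red is called lower, blue called higher and grey uncalled at limma's adjusted p of 0.05. The *Mest* and *Ndn* domains hold called probes on both sides of 0, the tested *H19* and *Grb10* neighbours that were called lie above 0, and those of *Sgce* and *Peg10* below. The called *Cobl* probe passed the detection filter by the siDJ-1 arrays alone.

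Among imprinted genes outside these domains 5 of 35 tested probes were higher and 3 lower. *Dcn*, the matrix proteoglycan decorin, was lower by both its tested probes (−1.79 and −1.34, limma adjusted p = 0.00580 and 0.00598). *Inpp5f*, a phosphoinositide phosphatase gene, was higher (1.18, adjusted p = 0.00234), as was the adaptor gene *Gab1* (0.64, adjusted p = 0.0244). *Gatm*, of creatine synthesis, was also higher (0.97, adjusted p = 0.0211), but lay near background after scramble and was undetected on scramble replicate 1. The probes of *H13*, a signal peptide peptidase gene, disagreed, with 1 called higher (1.22), 1 called lower (−0.68) and 3 uncalled.

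The partners through which the set acts were read next. Beside these counts and those of the later lists stand 13.6% of all tested probes called lower and 16.5% higher. Of the complex of sarcoglycans, dystroglycan, dystrobrevin and syntrophin, to which *Sgce* belongs, 3 of 13 tested probes were lower and 1 higher. All 3 probes of *Sgca*, the alpha subunit, fell (−0.66, −0.54 and −0.58, limma adjusted p = 0.0108, 0.0115 and 0.0119). The higher probe was designed on a cDNA clone named for dystrobrevin alpha (1.19, adjusted p = 0.0126, and 0.44 with no background correction). The 3 other tested probes of that gene were uncalled. The list's median was −0.22 (−0.06 under the 75th percentile shift).

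In insulin and IGF receptor signalling, where *Grb10* acts, 1 of 13 tested probes was higher and 1 lower, with a median of −0.07 (−0.02 under the 75th percentile shift). At limma's unadjusted p under 0.05 the list gave 4 higher and 1 lower, against 23.6% and 19.2% of all tested probes. The groups did not overlap for 61.5% of its tested probes, against 48.5% of all. Both tested probes of the receptor gene *Igf1r* were uncalled (0.76 and 0.42, limma adjusted p = 0.0514 and 0.0639). *Grb14*, which encodes an adaptor of the same family as *Grb10*, fell (−0.75, limma adjusted p = 0.0366). The substrate gene *Irs2* rose (0.64, adjusted p = 0.00760). Of the Notch genes, the pathway of *Dlk1*, 1 of 9 tested probes was lower, that of the Notch target *Heyl* (−1.73, adjusted p = 0.00383), and 1 higher, that of the receptor *Notch3* (0.31, adjusted p = 0.0415); the median was 0.10.

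Of the other MAGE genes, the family of *Ndn*, 0 of 3 tested probes passed limma's adjusted p, and 0 an unadjusted p under 0.05, with a median of 0.13 (0.27 under the 75th percentile shift), and of the other genes derived, like *Peg10*, from the Gag of retrotransposons 0 of 5 passed, and 1 the unadjusted p, with a median of −0.14 (−0.03 under the 75th percentile shift). Over all tested probes 30.1% passed, and nothing was read from counts this small. Among regulators of imprints 2 of 11 tested probes were lower, *Uhrf1* (−0.72, limma adjusted p = 0.00537) and *Dnmt3b* (−0.71, adjusted p = 0.0123), which encode a cofactor of maintenance methylation and a de novo methyltransferase. The list's median was 0.04, and DNA methylation was not measured here.

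Some imprinted genes rise or fall as myoblasts fuse, so the levels of marker genes are given beside *Mest* and *Ndn*. Of the 31 tested probes of myotube markers 17 were lower (54.8%) and 2 higher (6.45%), against 13.6% and 16.5% of all tested probes. The median was −0.52 (−0.38 under the 75th percentile shift). The 2 higher probes were of titin, *Ttn* (0.76 and 1.77), while further *Ttn* probes were called lower (−0.59, −0.76 and −0.64). The sum of the normalized signal over all 38 probes came to 336152.8, 323911.8 and 322324.8 for scramble replicates 1, 2 and 3 and to 258599.6, 272622.9 and 234403.4 for siDJ-1 replicates 1, 2 and 3, with the probes of *Mylpf* and *Acta1* among the brightest. Of the 19 genes all but *Myh2* had a probe detected in both groups, that of *Myh4* on 1 siDJ-1 array alone, and the sum was lower after siDJ-1. The *Myh2* probe, counted among the lower ones, was detected on all scramble and 0 siDJ-1 arrays, so that it passed the filter by the scramble arrays alone. Among the siDJ-1 arrays replicate 2 had the highest and replicate 3 the lowest sum, the order seen for *Ndn* and for *Mest* by ILMN_2642417 and ILMN_2846904. *Park7* was likewise lowest on replicate 3. The part of the state of differentiation in these results was not tested.

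Markers of other cell types were read in the same way, against the same 13.6% of all tested probes called lower and 16.5% higher. Of cycling myoblasts 2 of 10 tested probes were lower, of *Ccnb1* (−0.57) and *Pcna* (−0.57), and 0 higher, while the median was 0.16 and limma's unadjusted p under 0.05 gave 3 higher and 2 lower (summed signal 5922.4, 6275.0 and 5724.2 against 5384.1, 6063.7 and 5618.8), with *Cdk1* the brightest and *Pax7* undetected. Of fibroblasts 3 of 6 were lower and 0 higher (17647.8, 16792.5 and 18637.8 against 12744.7, 14137.1 and 12809.8), with a median of −0.45, *Col3a1* the brightest and *Lum* and *Thy1* undetected; the 3 calls, of *Col1a1*, *Col3a1* and *Pdgfra* (−0.47, −0.42 and −0.58), were lost under the 75th percentile shift (−0.35, −0.28 and −0.56) and kept under both scalings with no background correction. The part of these markers in the results was not tested. Of adipocytes 1 of 2 was higher and 1 lower (546.8, 390.8 and 468.7 against 544.8, 553.0 and 621.4), with *Pparg* the brightest and *Adipoq*, *Cidec*, *Lep* and *Plin1* undetected on all arrays.

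The probes whose course over the 6 arrays was most like that of the called members were found by the root mean square difference of values centred on each probe's own mean. Nearest to *Mest* ILMN_2642417 were *Pafah2* (0.15 log2 units; difference −0.97, limma adjusted p = 0.0275) and *Ptn* (0.17 log2 units; difference −0.92, adjusted p = 0.0800). Nearest to *Ndn* were *Nsf* (0.03 log2 units; difference −0.69, adjusted p = 0.0105) and *Tbc1d7* (0.04 log2 units; difference −0.65, adjusted p = 0.0126). These probes were picked for their likeness to a called member over the same arrays. Their differences and adjusted p follow from that choice and are no separate result.

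**Figure D4:**
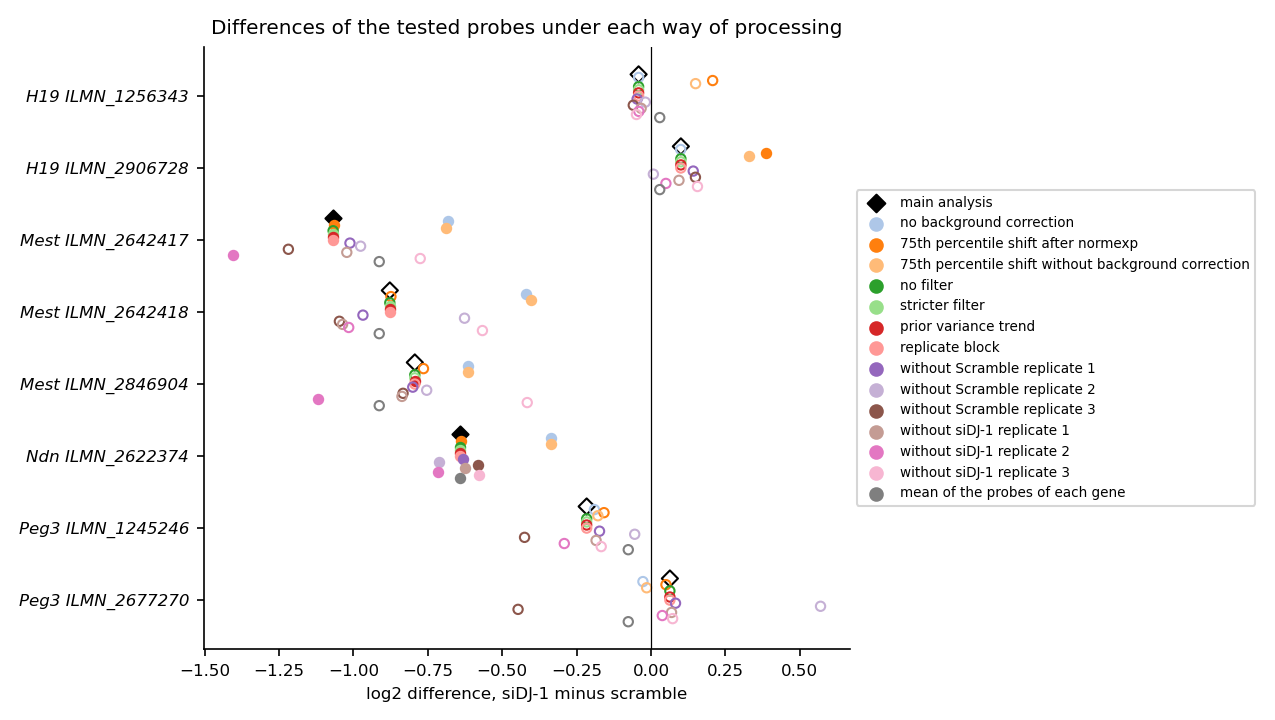
Log2 difference of each tested probe under the main analysis (black diamond) and under 14 other ways of processing (coloured circles; 13 for *Peg3* ILMN_2677270, which the stricter filter leaves out), with filled symbols where limma's adjusted p was under 0.05. The *Mest* and *Ndn* probes lie below 0 throughout, the *H19* probes move upwards under the 75th percentile shift, and *Peg3* ILMN_2677270 falls on both sides of 0.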

How the data were processed

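RNA of 6 C2C12 myotube samples was hybridized to a single Illumina BeadChip, so that the chip is no batch. The authors quantified the arrays in GenomeStudio and deposited intensity values, each the mean over the beads of a probe, without normalization or background subtraction. The deposited report also gives a detection p-value, the standard error over beads and the number of beads per probe and array. All columns of values were used.

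In R 4.3.3 with limma 3.58.1, background was corrected by normexp in which limma derives the negative controls from those p-values (offset 16), followed by quantile normalization and log2. The fit took in 17890 probes, those detected at p under 0.05 on 3 or more arrays, and was run with lmFit and eBayes on 3 arrays per group, with Benjamini-Hochberg adjustment over all of them and a threshold of 0.05. The fit was tested on simulated data. An exact two-sided permutation test of 3 against 3 arrays cannot go below p = 0.1 and was not used. The number of arrays limits the precision. Where every array of a group lay below background, a bound took the higher of the faintest detected value and the probe's own value on each array.

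Of 45281 probes 32345 matched a gene of the RefSeq table of GRCm38.p6, which gave names and neighbours; others kept the array's name. All probes of the 9 genes and *Park7* could be named, as could those called in a list, detected on all arrays in an imprinted list or nearest to a called member; of the called marker probes only some are named. Marker genes named as brightest or undetected were chosen after their values were seen. The genes and lists were chosen with earlier results of these data known, and 2 list genes, both called, were later taken out of their lists and are not reported here. Alternatives changed the background correction, scaling, filter, prior variance, blocking, arrays and the treatment of several probes of a gene.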

Additional observations from a re-analysis of the deposited data

How the results depend on the processing

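The lower level of *Ndn* kept its direction and its call under all 14 alternatives, at differences of −0.72 to −0.33 (limma adjusted p 0.00411 to 0.0480), and so did *Park7*, at −1.24 to −1.003. All 3 *Mest* probes kept their direction. ILMN_2642417 lost its call under 7 of the 14 and ILMN_2642418 and ILMN_2846904 gained one under 5 and 4, so that the call of *Mest* depended on the setting. *H19* ILMN_1256343 turned positive under the 75th percentile shift with (0.21) and without (0.15) background correction and as a mean of probes (0.029). *Peg3* ILMN_2677270 turned negative with no background correction (−0.027), with that and the 75th percentile shift (−0.015) and as a mean of probes (−0.077), and ranged from −0.45 to 0.57 as arrays were left out.

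Member probes called lower numbered 4 with no background correction, with the percentile shift and no background correction and with a trend of the prior variance, and 1 with no filter or with probes averaged to genes. Member probes called higher numbered 1 under both percentile shifts. All probes called numbered 5387 of 17890 in the main analysis, 5403 with the percentile shift, 6292 with no background correction and 6291 with both changes. They numbered 6470 with the trend of the prior variance and 3519 of 45281 with no filter. With probes averaged to genes, 4167 of 12623 genes were called. Other imprinted probes called higher numbered 6 with no filter and 20 with the variance trend, and those called lower 3 with no filter or averaged to genes. Leaving out each array in turn gave 2559 to 5271 probes called, 1 to 3 member probes lower, 0 higher, and 5 to 11 other imprinted probes higher and 2 to 6 lower, with fewer arrays in each fit. The cause of the other shifts was not tested.

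Replicate numbers are shared by both groups, but same-numbered arrays deviated together only weakly (correlations 0.05, 0.05 and 0.02 over tested probes, each the highest of its array), and they were not taken as pairs. With the number as a replicate block 4350 probes were called, among them 3 member probes lower.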
